A study of Mus musculus with 6 samples.

Results

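The chaperone genes of the HSP, DNAJ and CCT families were examined in mouse pre-B cells with raised or sequestered miR-26. Members were all gene probes whose name on the array begins with Hsp followed by a, b, d, e, h or a digit, with Dnaja, Dnajb or Dnajc and a digit, or with Cct and a digit, leaving out Hspa5. This gave 81 of the 34797 gene names on the array, of which 27 were HSP, 45 DNAJ and 9 CCT genes, with 118 of 55681 probes. The cells were the line 1676, an IL-7-dependent line from SLP-65-/- LAT-/- mouse bone marrow that is held at the pre-B stage. All cells carried a retroviral vector, were selected with puromycin and were kept in excess IL-7. The 3 groups were an empty control vector, a vector for hsa-miR-26a-2, called miR-26a here, and a sponge that sequesters members of the miR-26 family. Each group had 2 arrays, labelled replicate 1 and replicate 2, all on 1 slide. The study describes 2 independent experiments. Replicate 1 of each group was taken here as experiment 1 and replicate 2 as experiment 2, a pairing that the labels do not state. The groups are therefore vector-selected cells of 1 line, and p-values measure the spread between these 6 arrays alone. The titles of both control arrays quote the numbers of other sample records, so these arrays may have been deposited before, and every comparison with control rests on them.

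Chaperones bind unfolded or partly folded proteins. HSP70 proteins (Hspa genes) hold short exposed stretches in a cycle driven by ATP, J-proteins (Dnaj genes) bring clients and start ATP hydrolysis, and HSP110 proteins (Hsph1, Hspa4, Hspa4l) exchange the nucleotide so that the client is released. HSP90 completes the folding of kinases and receptors, the HSP60 and HSP10 proteins (Hspd1, Hspe1) form the folding cage of mitochondria, and the CCT ring folds actin and tubulin in the cytosol. Many of these genes share heat shock elements, inverted repeats bound by the heat shock factor HSF1. A miRNA binds its target transcripts through its seed, bases 2 to 8, and lowers their level.

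The mature strands of the miR-26 family are shown because both vectors act through their common seed, in capitals here (RefSeq, GRCm38.p6).
mmu-miR-26a-5p: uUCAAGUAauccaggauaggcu
mmu-miR-26b-5p: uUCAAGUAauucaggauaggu
None of the 118 member probes held the 7-base complement of the seed, TACTTGA, which 0.431% of all probes on the array hold. The word ACTTGA, paired to bases 2 to 7, was in 3 member probes (1.96% of all probes held it), and TACTTG, paired to bases 3 to 8, was in 1 (1.45% of all probes). The pair of these probes that could be tested is shown with the word in capitals.
Hspb6: ccccaataaatgcACTTGAgattt
Dnajc27: agacctttTACTTGtccatagttg
An array probe covers only 1 short stretch of a transcript, so this search says nothing of the rest of each transcript.

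Of the 118 probes, 82 probes of 58 genes were bright enough to test, and each of these was well above background on all 6 arrays. Their mean log2 signals ran from 5.70 to 17.0 with a median of 11.3. Of the 36 probes not tested, 21 were above background on no array and 8 on all 6. No probe of 23 genes was tested. Among the heat-inducible genes, Hspb1 and Hspb8 were above background on no array. Hspa1a, the stress-inducible cytosolic HSP70, was above background on 4 of 6 arrays, and its log2 signal of 3.37 to 4.12 was too low to test. These 3 genes therefore have no test below.

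Facts of the whole series bear on all results. The 6 arrays had between 28823 and 29800 spots well above background and none saturated, and replicates correlated at 0.996 to 0.997 across the tested probes. All 11 pre-B marker genes were above background on all arrays. Of the markers of other cells, Cd3g, Cd8a, Ncr1, Cd14, S100a8, Col1a1 and Pdgfrb were above background on no array, while Itgam, Csf1r, Elane, Cd3e and Cd4 were above background on all 6. The probes of Blnk, which encodes SLP-65, and Lat were bright on every array, so they check the deletion of these genes only if they lie within the deleted part. Some of these markers differed between the groups. With miR-26a against control, 1 probe of Itgam differed by -0.82 on the log2 scale (adjusted p = 0.0072) and the other by 0.06, Dntt, a pre-B marker, by -1.12 (adjusted p = 0.0055) and Blnk by -0.49 (adjusted p = 0.028). With the sponge against control, 1 probe of Csf1r differed by -0.69, 1 of Itgam by -0.52, Cd4 by -0.32 and Cd3e by -0.29 (adjusted p from 0.19 to 0.29). Over the lists, the 13 pre-B probes had medians of -0.07 with miR-26a and -0.02 with the sponge, and the 5 tested myeloid probes of -0.04 and -0.20. The part of these in the results below was not tested. In bulk RNA, fewer cells of a type and less RNA per cell cannot be told apart.

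To ask which chaperones respond to raised miR-26a, miR-26a arrays were compared with control arrays over all 20168 probes that could be tested. The J-protein Dnaja2 fell, and the J-proteins Dnajc12, Dnajc16 and Dnajc27 and the mitochondrial HSP70 gene Hspa9 rose, by 0.33 to 0.41 on the log2 scale for those that rose. A probe was called at an adjusted p under 0.05. Of the 82 member probes, 1 was called lower (1.22%), against 5.14% of all probes tested, and 4 were called higher (4.88%), against 4.50%. At an unadjusted p under 0.05, 10 member probes were lower (12.2%, against 13.0% of all probes) and 11 higher (13.4%, against 14.3%). These shares were near or below those of all probes. The median log2 difference over the member probes was 0.02, against 0.01 for all probes.

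Dnaja2 encodes a cytosolic J-protein that drives HSP70-assisted refolding. Its brighter probe (mm9, chr8:88062657-88062716) had log2 signals of 12.24 and 12.17 in the control arrays, 11.91 and 11.75 with miR-26a, and 12.61 and 12.35 with the sponge. Both miR-26a arrays were thus below both control arrays, and both sponge arrays above them. The difference of miR-26a from control was -0.37 ± 0.08 (SE of the fit, n = 2 arrays per group; adjusted p = 0.042, limma). The dimmer probe (chr8:88061548-88061607) gave 9.75 and 9.56 in control, 9.47 and 9.30 with miR-26a, and 10.10 and 9.75 with the sponge. Its groups lay in the same order, the sponge and control arrays touching at 9.75, and its difference of -0.26 ± 0.08 missed the threshold (adjusted p = 0.096).

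Hspa9 encodes mortalin, the HSP70 that pulls proteins into mitochondria and folds them there. Its log2 signals were 13.40 and 13.17 in control, 13.82 and 13.48 with miR-26a, and 13.61 and 13.20 with the sponge. The miR-26a arrays lay above the control arrays, experiment 1 was higher than experiment 2 in every group, and the difference was 0.36 ± 0.08 (adjusted p = 0.043). Dnajc12, a co-chaperone of aromatic amino acid hydroxylases, showed the largest rise (chr10:62871211-62871270). It measured 9.69 and 9.61 in control, 10.13 and 9.998 with miR-26a, and 9.83 and 9.60 with the sponge. Here the miR-26a arrays stood above all other arrays (0.41 ± 0.07, adjusted p = 0.028).

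Dnajc16, a membrane J-protein of the endoplasmic reticulum (chr4:141318096-141318155), measured 7.90 and 7.86 in control, 8.18 and 8.24 with miR-26a, and 7.99 and 7.96 with the sponge. The 3 groups did not overlap (miR-26a minus control 0.33 ± 0.07, adjusted p = 0.044). Dnajc27, a Rab-like GTPase with a J-domain and one of the dimmest members tested, measured 5.76 and 5.21 in control, 6.05 and 5.66 with miR-26a, and 6.05 and 5.50 with the sponge. Its control and miR-26a arrays overlapped, and it rose only when arrays of the same experiment were compared (0.37 ± 0.08, adjusted p = 0.041). Leaving out any 1 of the 6 arrays left none of these 5 calls, except that Dnajc27 stayed called without miR-26a replicate 1. Without the pairing of arrays by experiment none was called either, with 75th percentile scaling Dnaja2 and Hspa9 were not, and with normexp background correction Dnajc27 was not.

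**Figure D1:**
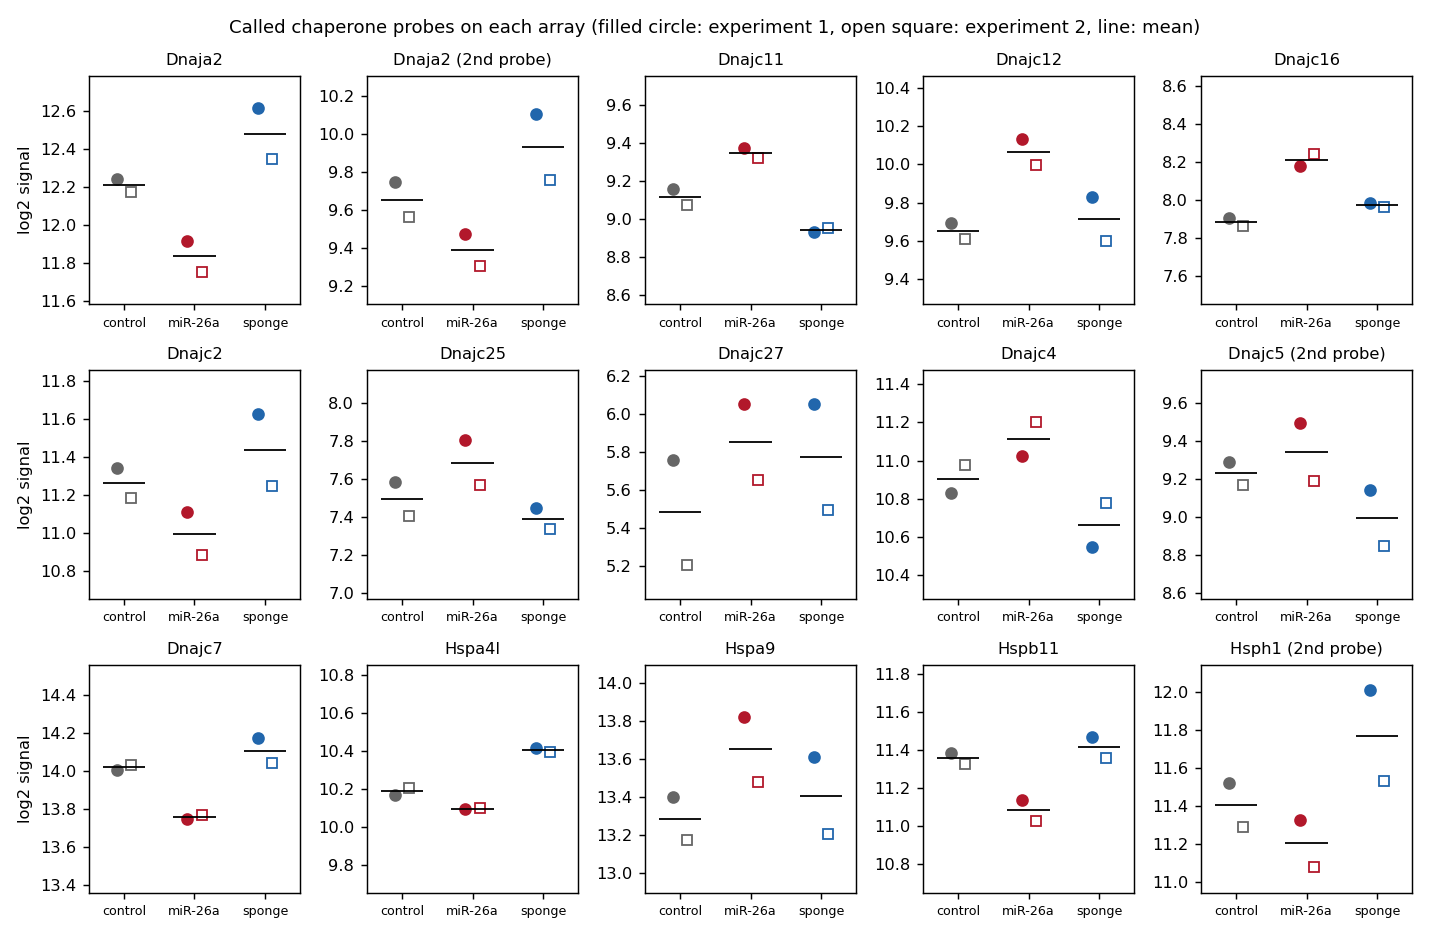
Log2 signal (y axis, arbitrary units, each panel spanning the same range) of the 15 chaperone probes called in the comparison of miR-26a with control or with the sponge, on each of the 6 arrays. Circles are experiment 1, squares experiment 2 and lines group means. Dnaja2 steps up from miR-26a through control to sponge in both probes, and most panels show experiment 1 above experiment 2.

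Of the members that the study lists, Dnajc27 is given above, and Hspb6, Dnajc24, Dnajc7 and Hspa4 did not pass an adjusted p under 0.05 in this comparison. The study's own limit differs, a fall of at least 20% with miR-26a at a p-value under 0.05, with no adjustment stated. For the sponge it is a rise of 20% at a looser p-value. The listed genes also had to be computationally predicted targets of miR-26. At an unadjusted p under 0.05 (limma), Hspb6, Dnajc24 and Dnajc7 each had a probe lower with miR-26a than control. By the same rule Hspa4 and Dnajc27 each had a probe higher with the sponge than control. Hspb6, a small heat shock protein known from muscle, measured 10.40 and 10.67 in control, 10.04 and 10.35 with miR-26a, and 10.10 and 10.65 with the sponge. Its difference of -0.34 ± 0.09 was alike in both experiments, but the adjusted p was 0.075. Dnajc24, needed for diphthamide synthesis, differed by -0.29 in its brighter probe (adjusted p = 0.083) and by -0.11 in the other (adjusted p = 0.48). Dnajc7, a J-protein that joins HSP70 to HSP90, differed by -0.26 (adjusted p = 0.094). The 3 probes of the HSP110 gene Hspa4 differed by 0.12, -0.02 and 0.18 (adjusted p from 0.35 to 0.89).

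The families were spread around 0 (see the plot of differences by family). In HSP70 the constitutive Hspa8 measured between 16.72 and 16.85 on the control and miR-26a arrays in its brightest probe, and its 3 probes differed by -0.03, 0.04 and 0.03. The lowest member of that family was Hspa2, the testis-enriched HSP70, at -0.28 (adjusted p = 0.063). The 3 HSP90 genes differed by -0.14 (Hsp90ab1, the constitutive cytosolic form), -0.05 (Hsp90b1, the form of the endoplasmic reticulum) and 0.11 (Hsp90aa1, the inducible form), with adjusted p from 0.30 to 0.78. The median of the 3 tested small heat shock gene probes was -0.27, with Hspb11, a subunit of the intraflagellar transport machinery rather than a typical chaperone, at -0.27 (adjusted p = 0.062). Among Dnajb genes the extremes were Dnajb2 at 0.32 (adjusted p = 0.050, above the threshold before rounding; 0.10 in its other probe) and Dnajb14 at -0.30 (adjusted p = 0.056).

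The 7 tested CCT subunits had no call and a narrow range. Their log2 differences ran from -0.17 in Cct2 (adjusted p = 0.27) to 0.15 in Cct6a (adjusted p = 0.27), with a median of 0.06. Cct2 measured 15.63 and 15.56 in control, and 15.38 and 15.45 with miR-26a, so that its groups did not overlap, but the difference did not pass. Cct3, Cct4, Cct5, Cct7 and Cct8 lay between -0.03 and 0.09.

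**Figure D2:**
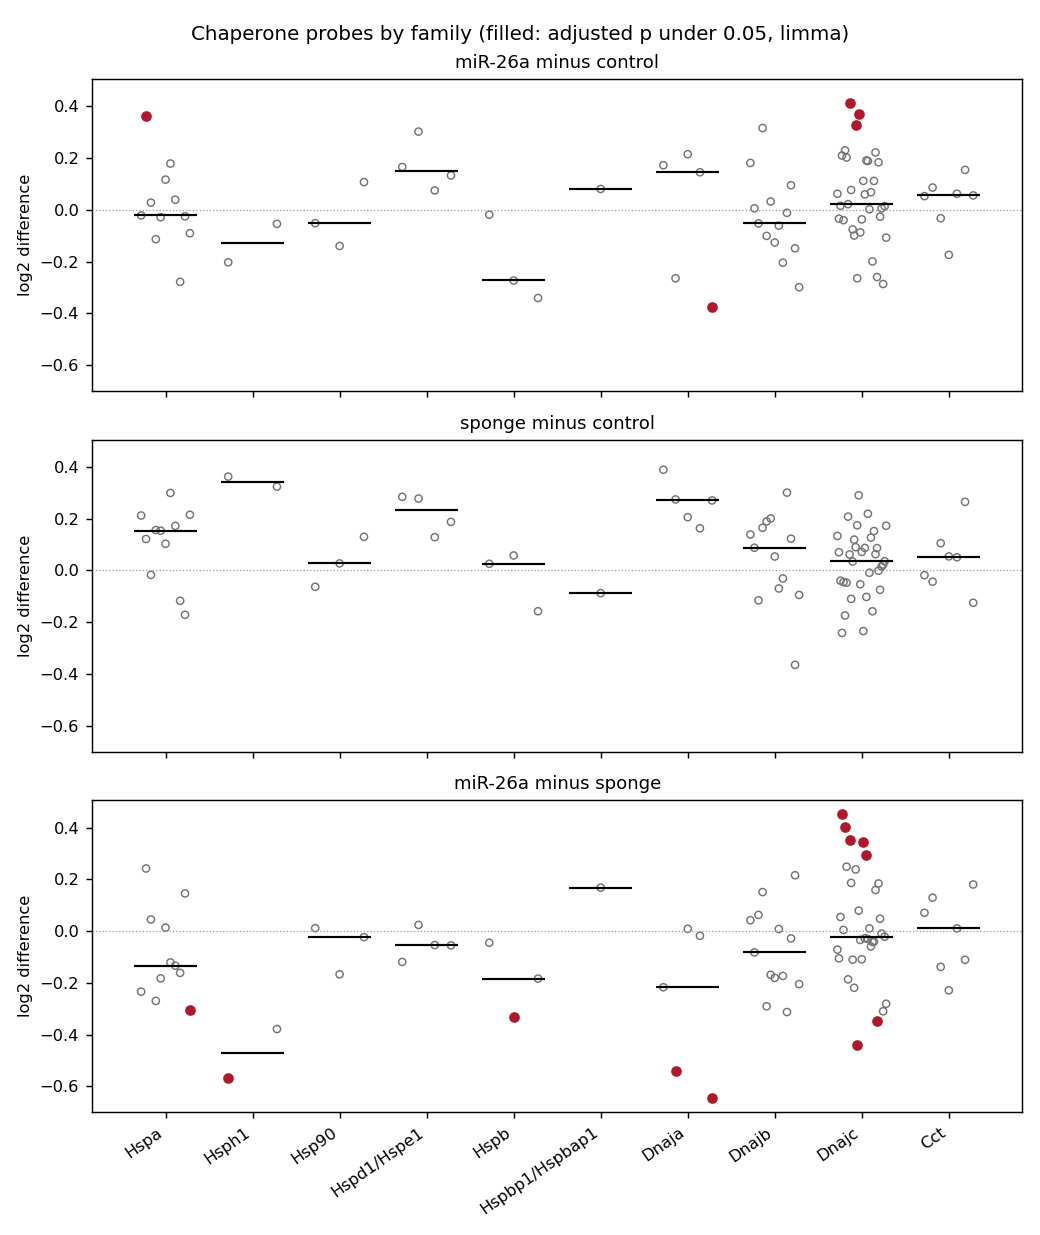
Log2 difference of each tested chaperone probe (y axis) by family (x axis) for 3 comparisons, with lines at family medians and filled points for an adjusted p under 0.05. The filled points lie in the Hspa, Hsph1, Hspb, Dnaja and Dnajc families, no CCT or HSP90 point is filled, and no point is filled for the sponge against control.

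A list of members that work in mitochondria (Hspa9, Hspd1, Hspe1, Dnaja3, Dnajc11, Dnajc15, Dnajc19 and Dnajc30 had tested probes) had a median above that of control with both vectors. With miR-26a all 12 of its tested probes, from 8 genes, had a positive difference, where 52.7% of all probes did. The median was 0.17 against 0.01 for all probes, and of the 12 only Hspa9 was called. Experiment 1 gave a median of 0.16 and experiment 2 one of 0.18, and 10 of 12 probes were positive in both. With background corrected by normexp 11 of 12 were positive. With the sponge, against the same control arrays, the median was 0.13 with 8 of 12 positive, and between miR-26a and sponge the median was 0.01 with 7 of 12 positive. Hspd1, the HSP60 of the folding cage, measured 14.61 and 14.35 in control and 15.04 and 14.53 with miR-26a, a difference of 0.30 (adjusted p = 0.14). Dnaja3, the mitochondrial J-protein also called Tid1, differed by 0.22 (adjusted p = 0.13), and Dnajc11, of the membrane-shaping complex of the inner membrane, by 0.23 and 0.18 in its probes (adjusted p = 0.10 and 0.27). In the list of the endoplasmic reticulum the median was -0.05, with 5 of 14 probes positive. Positive differences with miR-26a were not particular to mitochondrial members. Among lists of non-members taken up below, HSP90 co-chaperones had 22 of 27 positive (median 0.10) and HSP70 exchange and adaptor factors 15 of 20 (0.08). Other chaperones, some of them mitochondrial, had 7 of 7 (0.11), while the list of TRiC, prefoldin and tubulin cofactors had 5 of 20 (-0.05).

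**Figure D3:**
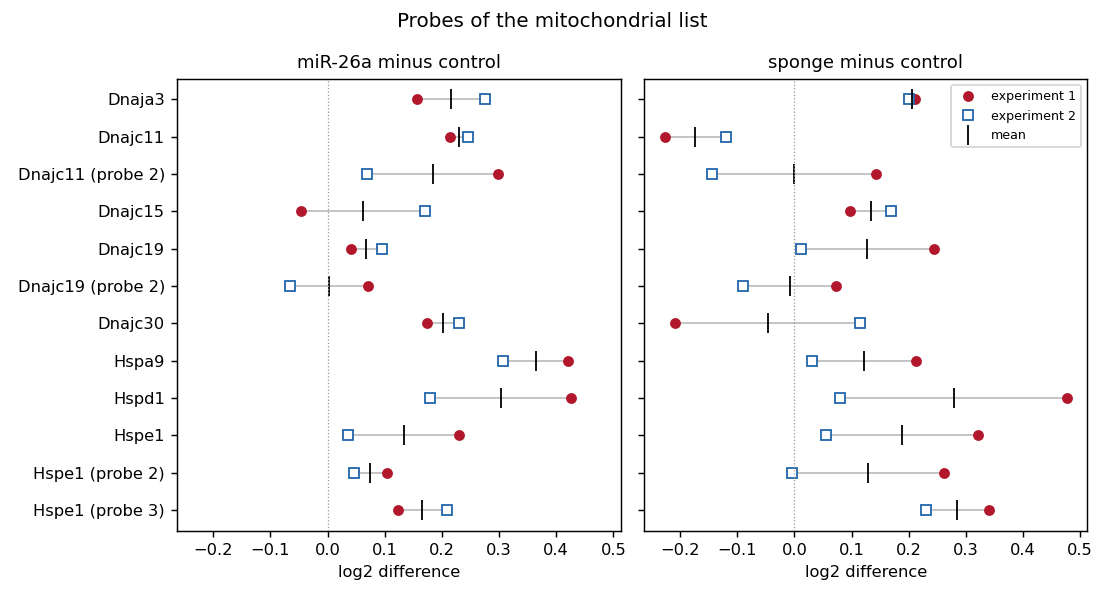
Log2 difference (x axis) of the 12 tested probes of the mitochondrial list (y axis) for miR-26a minus control and sponge minus control, with experiment 1 as circles, experiment 2 as squares and their mean as a bar. All 12 means lie above 0 with miR-26a, against 8 of 12 with the sponge.

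To ask which chaperones respond when the endogenous family is sequestered, sponge arrays were compared with the same control arrays. No member was called by limma in either direction, where 0% of all probes were called lower and 0.00992% higher. At an unadjusted p under 0.05, 16 member probes were higher (19.5%, against 7.38% of all probes) and 5 lower (6.1%, against 8.72%). The experiments differed in this. The median over all member probes was 0.130 in experiment 1 and 0.002 in experiment 2, and over the DNAJ probes 0.120 and -0.003. The 14 genes with a higher probe included the HSP110 genes Hsph1, Hspa4 and Hspa4l, the J-protein genes Dnaja1, Dnaja2, Dnaja3 and Dnajb6, and the mitochondrial cage genes Hspd1 and Hspe1. None of these differences was called after adjustment.

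Hsph1 was the member with the largest difference among HSP genes. Its dimmer probe measured 11.52 and 11.29 in control and 12.01 and 11.53 with the sponge, a difference of 0.36 ± 0.09 (adjusted p = 0.22), and the brighter one 12.66 and 12.49 in control and 13.12 and 12.67 with the sponge (0.32 ± 0.10, adjusted p = 0.24). Sponge experiment 1 was far above control, while sponge experiment 2 lay just above control experiment 1. All 5 probes of the Dnaja genes were positive in both experiments, from 0.16 to 0.39, with the highest in the dimmer probe of Dnaja1, a J-protein of the cytosol (6.86 and 6.29 in control, 7.05 and 6.88 with the sponge, adjusted p = 0.24). The lowest member was the dimmer probe of Dnajb9, a J-protein of the endoplasmic reticulum, at -0.37 (adjusted p = 0.23), while its brighter probe gave -0.12.

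The 24 tested HSP probes had a median of 0.13 (0.19 in experiment 1 and 0.04 in experiment 2), against 0.00 for all probes. The heat-inducible list had one of 0.18 (0.25 and 0.11). Its 14 tested probes were of Hspa8, Hspa4l, Hsp90aa1, Hsph1, Hspd1, Hspe1, Dnaja1 and Dnajb1. The list thus includes the constitutive Hspa8 and the mitochondrial Hspd1 and Hspe1, while its genes Hspa1a, Hspb1 and Hspb8 had no tested probe. With sponge replicate 1 left out the HSP median was 0.05. With control replicate 1 left out it was 0.06. Hspa8 probes disagreed, at -0.17, 0.17 and -0.02. The CCT median was 0.05, with Cct6a highest (0.27; 11.78 and 11.51 in control, 12.13 and 11.70 with the sponge; adjusted p = 0.24) and Cct3 lowest (-0.12, adjusted p = 0.40).

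Because both vectors were compared with the same control arrays, whether their effects differ was tested directly as miR-26a against sponge. With miR-26a, Dnaja2, Hsph1, Dnajc2, Dnajc7, Hspb11 and Hspa4l were lower than with the sponge, and Dnajc4, Dnajc11, Dnajc12, Dnajc5 and Dnajc25 were higher. Of the member probes 7 were called lower (8.54%, against 8.49% of all probes) and 5 higher (6.1%, against 8.28%), so the shares were near those of all probes. At an unadjusted p under 0.05, 17 were lower (20.7%, against 15.9%) and 9 higher (11%, against 18.7%).

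Dnaja2 had the largest difference, -0.65 ± 0.08 in its brighter probe (adjusted p = 0.0080) and -0.54 ± 0.08 in the other (adjusted p = 0.013). Its differences from control had opposite signs, -0.37 with miR-26a and 0.27 with the sponge in the brighter probe, -0.26 and 0.27 in the other. Of these only the fall of the brighter probe was called. The sponge differences had an adjusted p of 0.24 in both probes (limma), and all of these rest on the same control arrays. Hsph1 differed by -0.57 ± 0.09 in its dimmer probe (11.33 and 11.08 with miR-26a, 12.01 and 11.53 with the sponge; adjusted p = 0.015) and by -0.38 in the brighter (adjusted p = 0.052). Hspa4l, another HSP110 gene, measured 10.10 on both miR-26a arrays and 10.41 and 10.39 with the sponge, the tightest of the called members (-0.31, adjusted p = 0.034). Its control arrays, at 10.17 and 10.21, lay between.

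Dnajc2, a ribosome-bound J-protein that acts on nascent chains, measured 11.11 and 10.88 with miR-26a and 11.63 and 11.24 with the sponge (-0.44, adjusted p = 0.023). Dnajc7 measured 13.75 and 13.77 with miR-26a against 14.17 and 14.04 with the sponge (-0.35, adjusted p = 0.035). Hspb11 measured 11.14 and 11.03 against 11.47 and 11.36 (-0.33, adjusted p = 0.029). In each of these 3 genes no miR-26a array reached the lowest sponge array.

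Of those higher with miR-26a, Dnajc4, a little-studied J-protein, measured 11.02 and 11.20 with miR-26a and 10.55 and 10.78 with the sponge, with control between at 10.83 and 10.98 (0.45, adjusted p = 0.014). The brighter Dnajc11 probe measured 9.37 and 9.32 against 8.93 and 8.95 (0.40, adjusted p = 0.019), and its other probe differed by 0.18 (adjusted p = 0.22). Dnajc12 differed by 0.35 (adjusted p = 0.031). Dnajc25 and Dnajc5 were called on 1 probe each, 0.29 and 0.35 (adjusted p = 0.046 and 0.039), and their other tested probes disagreed. For Dnajc25 the other probe gave -0.03. For Dnajc5, the cysteine string protein, the brightest probe gave -0.03 and the third 0.16.

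Leaving out either sponge array left none of the 12 calls. Without either control array 5 remained, in Dnaja2, Dnajc2, Dnajc4 and Hsph1, without miR-26a replicate 1 there were 4 of the 12 and without miR-26a replicate 2 there were 6. Without the pairing by experiment 2 remained, a probe of Dnaja2 and one of Dnajc11. Both HSP90 and CCT families had no call here, and their medians were -0.02 and 0.01, the latter turning to -0.049 with 75th percentile scaling.

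The other genes of the folding pathway were taken from a list of 62 co-chaperones and related factors, of which 61 were on the array and 57 genes with 76 probes could be tested. With miR-26a against control, 3 of these probes were called lower (3.95%, against 5.14% of all probes) and 2 higher (2.63%, against 4.50%), a smaller share than over all probes in both directions. Prefoldin hands actin and tubulin chains to the CCT ring, and 2 of its subunits fell. Its subunit Pfdn4 measured 10.12 and 9.79 in control, 9.39 and 9.15 with miR-26a, and 10.37 and 9.94 with the sponge (miR-26a minus control -0.68, adjusted p = 0.010). Its subunit Vbp1 fell by 0.48 in the brighter probe (12.40 and 12.32 in control, 12.02 and 11.75 with miR-26a; adjusted p = 0.023), and the other probe gave -0.34 (adjusted p = 0.092). Of the other subunits tested, Pfdn1, Pfdn2 and Pfdn5 gave 0.15, 0.10 and -0.13, with no call, and Tcp1, the first CCT subunit, gave -0.03.

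Chordc1, an HSP90-binding protein, fell by 0.35 (adjusted p = 0.040). Hyou1, the HSP110 of the endoplasmic reticulum, rose by 0.36 (adjusted p = 0.042), and Clpb, a mitochondrial disaggregase, by 0.31 (adjusted p = 0.046). No listed cofactor was called with the sponge against control. With miR-26a against sponge, 5 probes were called lower (Pfdn4, both probes of Vbp1, Chordc1 and Nudcd2; 6.58%, against 8.49% of all probes) and 3 higher (3.95%, against 8.28%). The highest was Stub1, also called CHIP, a ubiquitin ligase that takes clients of HSP70, at 0.55 (13.41 and 13.50 with miR-26a, 12.90 and 12.91 with the sponge; adjusted p = 0.0088). The others were Trap1, the mitochondrial HSP90, at 0.36, and Clpb at 0.31. Hsf1 and Hsf2, the heat shock factors, differed by 0.03 and 0.02 from control with miR-26a and by -0.12 and 0.01 with the sponge, with no call.

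The members also differed between the experiments, a comparison that was made after the values had been seen. In the same fit, experiment 1 was higher than experiment 2 in 3 member probes and lower in 0 at an adjusted p under 0.05 (3.66% and 0%, against 1.57% and 1.75% of all probes). At an unadjusted p under 0.05, 29 probes of 21 genes were higher in experiment 1 (35.4%, against 13.9%) and 6 lower (7.32%, against 13.1%). Experiment 1 was the higher in all 3 groups for 43 member probes (52.4%, against 27.0%) and the lower in all 3 for 9 (11%, against 24.0%). The median difference was 0.10, against 0.01 for all probes, and with 75th percentile scaling 42 probes were higher and 2 lower, where all probes gave 22.1% and 10.2%. Without either sponge array 17 were higher and 3 lower (9.02% and 8.81% of all probes).

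Hspd1 and Hspe1 led this difference, with 4 of 4 probes higher and a median of 0.42. Hspd1 measured 14.61, 15.04 and 15.09 in experiment 1 (control, miR-26a, sponge) and 14.35, 14.53 and 14.43 in experiment 2 (0.47 ± 0.09, adjusted p = 0.054). The dimmest Hspe1 probe, encoding HSP10, measured 10.76, 10.88 and 11.10 against 10.32, 10.52 and 10.55 (0.45 ± 0.06, adjusted p = 0.039). For both genes all 3 arrays of experiment 1 stood above all 3 of experiment 2. A probe of Hspa4 (0.42, adjusted p = 0.039; 11.40, 11.37 and 11.65 against 10.99, 10.98 and 11.17) and Dnajc27 (0.50, adjusted p = 0.038) were the other calls. The 7 CCT probes all had a positive difference, where 52.7% of all probes did, with a median of 0.14. Of the 7, 3 were higher at an unadjusted p under 0.05 and 0 at an adjusted p under 0.05. Hsph1 was higher by 0.26 and 0.32 in its probes. Hspb6 was lowest (-0.38, adjusted p = 0.059), followed by the brighter Dnajb9 probe (-0.27, adjusted p = 0.063).

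**Figure D4:**
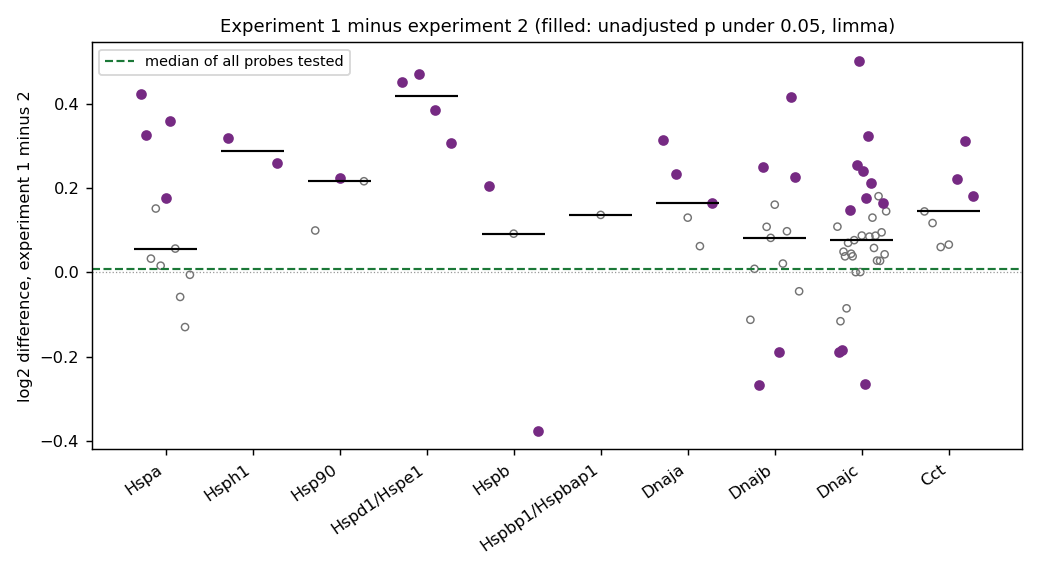
Log2 difference of experiment 1 minus experiment 2 (y axis) of each tested chaperone probe by family (x axis), with filled points for an unadjusted p under 0.05, solid lines at family medians and a dashed line at the median of all probes. The family medians all lie above the dashed line, and Hspd1/Hspe1 lies highest at 0.42.

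Other genes moved with the experiment as well. Of the 76 cofactor probes 27 were higher in experiment 1 at an unadjusted p under 0.05 and 1 lower, with a median of 0.12. Over all probes 13.9% were higher and 13.1% lower by that rule. Of the 13 probes for the 11 pre-B marker genes 7 were lower by it and 0 higher. By sign alone 12 of the 13 had a negative difference, with a median of -0.17, where 52.7% of all probes had a positive one. The number of spots above background did not follow the experiment (29618, 29673 and 28823 in experiment 1, 29599, 28908 and 29800 in experiment 2). Arrays of experiment 1 carry slide position index 1 and those of experiment 2 index 2, so that experiment and position cannot be told apart, and the part of any of these in the difference was not tested.

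Promoter windows from 250 bases before to 50 after the start (RefSeq, GRCm38.p6) were searched for heat shock elements on both strands. Of the 81 genes 66 had a window, with 85 windows in all. The inverted repeat of 2 units, GAANNTTC, which reads the same on both strands, was in 17 of these windows (20%, against 7.86% of all 32851 windows). The element of 3 units, GAANNTTCNNGAA or its reverse complement TTCNNGAANNTTC, which contains the former, was in 6 (7.06%, against 0.603%), those of Hspd1, Hspe1, Hsph1 and Dnajb6. Of the 16 genes with a window that had a probe higher in experiment 1, 5 held the element of 2 units and 3 that of 3 units, among 46 tested genes with a window of which 8 and 4 did. Hspd1 and Hspe1 share the same stretch, which is counted for each gene, and the Dnajb6 windows hold the same element. The windows and genes counted here are therefore more than the separate elements. The 16 genes come from the comparison of experiments made after the values had been seen, and these counts were not tested.

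The stretch between Hspd1 and Hspe1 is shown because this pair of genes had the highest median difference between experiments of the families. The genes lie on opposite strands of chromosome 1 and are transcribed away from each other. Hspd1 has 2 starts in the windows. From the Hspd1 start with the lower coordinate to the Hspe1 start there are 215 bases between. Overlapping matches to the element of 3 units make a stretch of 18 bases in that gap, 72 to 89 bases before the Hspe1 start, written along the direction of Hspe1. Those of Dnajb6 and, with 2 units, of Dnaja1 and Hspa1a are given beside it. Capitals mark the matched bases.
Hspd1 and Hspe1, chr1:55088053-55088082, plus strand: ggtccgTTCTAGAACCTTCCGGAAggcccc
Dnajb6, chr5:29735843-29735872, plus strand: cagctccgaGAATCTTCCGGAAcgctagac
Dnaja1, chr4:40722333-40722362, plus strand: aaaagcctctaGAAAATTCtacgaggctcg
Hspa1a, chr17:34972242-34972271, minus strand: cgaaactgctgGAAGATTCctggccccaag
A match to these letters is a description of the sequence and was not tested for binding.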

How the data were processed

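RNA of 6 cultures was hybridised to single-colour Agilent 60-mer arrays. The authors deposited each array's scanner output, with spot intensity as mean, background-subtracted processed signal and flags (Agilent Feature Extraction 10.7.1.1, per the submitters' processing notes), and a table of quantile-normalized intensity on a linear scale. The methods describe quantile normalization, log2 transformation and normalization to the control of each experiment. Here control spots were left out, and the processed signals of all other spots were quantile-normalized and then taken to log2. The spots of a probe were averaged last, without outlier-flagged spots unless all spots of the probe were flagged. A flagged value of a probe with a single spot therefore stayed in. Probes above background on at least 1 array whose processed signal exceeded 50 on 4 or more of the 6 arrays were tested (20168). Probe coordinates are mm9 from the array design, RefSeq sequences are GRCm38.p6, and these were not mixed. Gene names are those of the array design.

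A linear model with group and experiment was fitted over all 6 arrays and all tested probes (limma 3.58.1, R 4.3.3), with moderated tests and Benjamini-Hochberg adjustment over all probes. Residual degrees of freedom were 2 and prior degrees of freedom 3.56, so the number of arrays limits the precision. The block follows the methods' normalization to each experiment's control. Arrays of 1 number deviated together (correlations of 0.379 to 0.588 between groups). The script was tested on simulated data. Named were called members, members of the study's target tables, the best-known member of each role and each family's extremes. Members and lists were chosen with earlier results of these data known. The brightest probe stands for a gene and disagreeing probes are given. Alternatives were no block, 75th percentile scaling, normexp (offset 50), the deposited processed table, other filters, array weights, gene averages, a trended prior, an unpaired t-test and each array left out.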

Additional observations from a re-analysis of the deposited data

How the results depend on the processing

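Without the replicate block, 0 members were lower and 0 higher with miR-26a against control, and 1 lower and 1 higher against the sponge, and the cofactor counts were 0 and 0, and 1 and 1. Without a filter and with the unpaired t-test all of these counts were 0, as were those over all probes, so that these zeros say nothing of the members. With the looser filter (signal above 50 on at least 2 arrays) 0 members were lower and 2 higher against control, and 0 cofactors were higher. Scaling to the 75th percentile gave 0 members lower against control, 1 cofactor higher against control and 1 against the sponge, a CCT median of -0.049 between miR-26a and sponge, and 2 members lower in experiment 1. Normexp gave 13 members and 8 cofactors lower against the sponge and an HSP median of -0.00260 against control. Array weights gave 4 members lower against control and 3 higher against the sponge, and averaging the probes of a gene gave 3 higher against the sponge. A trended prior gave 7 members lower against control and 16 against the sponge, and for cofactors 5 lower and 4 higher against control and 9 and 5 against the sponge. The counts over all probes changed in the same direction, from 1036 lower against control and 1712 against the sponge to 1517 and 2300 with the trended prior and to 238 and 632 without the block. With no filter 20 members were higher and 4 lower in experiment 1. The deposited processed values and the filter on all 6 arrays kept each of these counts within 1.5 times.

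With 1 array left out in turn, the lone array being assumed to vary like the others, members against control ranged from 0 to 0 lower and from 0 to 1 higher, and against the sponge from 0 to 5 lower and 0 to 2 higher. Cofactors ranged from 0 to 2 lower and 0 to 0 higher against control, and from 1 to 3 and 0 to 2 against the sponge. Experiment 1 was higher in 17 to 27 members and lower in 3 to 5. HSP medians ranged from -0.0331 to 0.0410 (miR-26a against control), 0.0492 to 0.191 (sponge against control) and -0.159 to -0.0331 (miR-26a against sponge). DNAJ medians ranged from -0.0298 to 0.0547, -0.00211 to 0.122 and -0.0560 to 0.0300 in the same order, and CCT medians from -0.00718 to 0.113, -0.0440 to 0.0849 and -0.0390 to 0.0334. The cause of these changes was not tested. The slide could not be fitted as a block because all arrays share 1 slide and 1 scan. Signal over background limits the members measured, since 36 of 118 probes were not tested.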
